A study of Mus musculus with 5 samples.

Results

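Nuclear and snoRNA-host long non-coding RNAs of a mouse melanoma line were followed here through 7 genes: Malat1, Neat1, Meg3, Kcnq1ot1, Gas5, Snhg1 and Snhg12. The genes were taken by symbol from the GRCm38 annotation of the 54100 Ensembl genes in the deposited table, and each symbol matched 1 gene. All were picked with results of these data known, and Malat1 was chosen by having been noted as far higher in the library labelled HIF-1α overexpression than in shControl. That difference is given below as a description, and nothing is supported with it.

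The series measured poly(A)-selected RNA of B16F10, a pigmented melanoma cell line of the mouse, and its title asks about HIF-1α, the oxygen-regulated transcription factor subunit, in stem-like tumour cells. There were 5 groups with 1 library each: HIF-1α overexpression, HIF-1α knockdown, dynamic suspension culture, conventional 3D culture and shControl. The overexpression and knockdown lines carry those words as their genotype label, the other groups are labelled wild type, and every sample is listed as untreated. Neither the overexpression vector nor the knockdown and shControl sequences, nor the number of clones, are given in the sources used here. The labels repeat one growth protocol for all samples, with medium lacking serum and shaking at 60 to 80 rpm over 7 to 10 days, so the culture methods are known by title alone. In each group 3 repeats were pooled before RNA was sequenced. No difference below therefore has a replicate check, and each comparison sets 1 library beside another.

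Long non-coding RNAs are transcripts with no long protein-coding frame. Malat1 is an abundant RNA of nuclear speckles, the bodies that store splicing factors, and Neat1 is the scaffold of paraspeckles, bodies built around its long isoform. Meg3 is a maternally expressed imprinted RNA, and Kcnq1ot1 is a paternally expressed antisense RNA that silences neighbouring genes of its imprinted cluster. Gas5, Snhg1 and Snhg12 carry small nucleolar RNAs (snoRNAs), the guides of ribosomal RNA modification, in their introns. The spliced host transcript is released when the snoRNAs are cut out. Spliced Gas5 is known to accumulate when growth or translation stops, because its decay by the nonsense-mediated pathway depends on translation, and hosts of this kind often start with the pyrimidine run that also marks ribosomal protein mRNAs.

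The deposited values are not of one kind. Columns of the libraries labelled overexpression and knockdown hold plain counts that summed to 15393189 and 14803426. Columns of dynamic suspension, conventional 3D culture and shControl hold estimated counts, recognisable by low values piled at multiples of 4, that summed to 61014260, 61267892 and 59493240. In comparisons of a plain with an estimated column, the kind of column and the group cannot be told apart. Hif1a, the targeted gene, stood at 384 CPM (the count set against the TMM-scaled library total) in the library labelled overexpression, 95.1 in the library labelled knockdown, 390.5 in dynamic suspension, 542 in conventional 3D culture and 61.3 in shControl. Its level in the library labelled knockdown was thus not below shControl, against the label. That difference was not called (log2 ratio 0.63) and sets a plain against an estimated column. Directions seen in that library are therefore not read as a loss of Hif1a. The library labelled overexpression likewise did not exceed dynamic suspension or conventional 3D culture, and shControl was lowest of all. All 10 of 10 melanocyte markers averaged at least 1 CPM over the libraries, against 1 of 6 immune, 1 of 4 endothelial, 0 of 6 epithelial, 0 of 6 erythroid, 2 of 4 neural and 5 of 6 fibroblast markers.

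The 3′ ends are shown first, because selection on poly(A) bears on how Malat1 and Neat1 are captured. Mature Malat1 and the long Neat1 isoform are known to end without a poly(A) tail, in a triple helix in which an A-rich tract lies between T-rich motifs (U in the RNA). Motifs of 3 kinds were searched on the transcript strand: 4 or 5 T, C, 4 T; 4 T, GC, 4 T; and 4 or more A, GC, 4 A. The second followed within 100 bases by the third was found in 4 of 141767 annotated transcripts, of 3 genes: Malat1, Neat1 and Retreg3. In the sequences from GENCODE M21, read on the minus strand of GRCm38, capitals mark the motifs found.
Malat1 triple-helix region (chr19:5795967-5796082): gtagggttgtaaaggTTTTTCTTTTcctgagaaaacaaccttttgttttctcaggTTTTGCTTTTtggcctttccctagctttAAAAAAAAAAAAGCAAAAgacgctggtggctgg
Neat1 long isoform, last 105 bases (chr19:5824708-5824812): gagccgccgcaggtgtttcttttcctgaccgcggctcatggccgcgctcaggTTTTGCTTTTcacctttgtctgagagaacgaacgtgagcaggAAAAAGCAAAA
The A-rich tract spans 18 bases in Malat1 and lies 292 bases before the annotated end of the 6983-base transcript. In Neat1 it spans 11 bases and is the very end of the 20771-base transcript. The annotated Malat1 end further on holds the polyadenylation signal AATAAA, here in capitals.
Malat1 annotated end (chr19:5795690-5795749): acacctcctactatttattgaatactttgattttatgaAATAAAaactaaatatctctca
AATAAA stood in the last 50 bases of 3 of 4 Malat1, 1 of 4 Neat1, 4 of 11 Meg3, 1 of 1 Kcnq1ot1, 1 of 25 Gas5, 11 of 18 Snhg1 and 8 of 10 Snhg12 annotated transcripts. Over all annotated transcripts the share was 26.6%. Counts were deposited per gene, so tailed and untailed forms of Malat1, and the long and short Neat1 isoforms, were not separated.

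The starts of the snoRNA hosts are shown because hosts of this kind often start with a pyrimidine run, as said above. RefSeq promoter sequences (GRCm38.p6) were matched for 6 of the 7 genes. Each line covers 30 bases before and 30 from the annotated start on the plus strand, with the unbroken run of C or T over the start in capitals.
Gas5 start (chr1:161035136-161035195): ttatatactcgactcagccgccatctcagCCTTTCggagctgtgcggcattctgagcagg
Snhg1 start (chr19:8723457-8723516): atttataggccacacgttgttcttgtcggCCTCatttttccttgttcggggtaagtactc
Snhg12 start (chr4:132308648-132308707): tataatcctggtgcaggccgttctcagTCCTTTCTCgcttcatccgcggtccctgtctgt
The run was 9 bases long in Snhg12, 6 in Gas5 and 4 in Snhg1, against 2 in Malat1 and 0 in Kcnq1ot1 and Meg3, where the start is a purine. A further annotated Gas5 start had 0. Of 32851 RefSeq promoters, 14.0% had a run of at least 4 and 7.25% one of at least 6.

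Promoters were also searched for ACGTG and GCGTG, the core letters of hypoxia response elements, on both strands with overlapping matches counted singly, since HIF-1α is the factor the series is about. They are shown for Malat1 and Kcnq1ot1, the genes higher than shControl below, and for Snhg1, which was lower, with matches in capitals.
Malat1 promoter, minus strand (chr19:5802663-5802735): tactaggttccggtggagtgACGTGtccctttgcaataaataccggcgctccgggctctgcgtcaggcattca
Kcnq1ot1 promoter, minus strand (chr7:143296505-143296611): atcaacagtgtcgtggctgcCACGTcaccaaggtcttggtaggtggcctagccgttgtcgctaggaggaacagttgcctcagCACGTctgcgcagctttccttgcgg
Snhg1 promoter, plus strand (chr19:8723319-8723496): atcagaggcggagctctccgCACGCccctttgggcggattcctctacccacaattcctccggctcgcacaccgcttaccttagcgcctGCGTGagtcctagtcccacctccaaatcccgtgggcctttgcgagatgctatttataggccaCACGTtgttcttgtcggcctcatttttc
The promoter windows held 1 match in Malat1, 2 in Kcnq1ot1, 3 in Snhg1 and 2 at one of the Gas5 starts. There were 0 in Meg3 and Snhg12 and at the other Gas5 start. At least 1 match stood in 43.8% of all promoters, at least 2 in 20.6% and at least 3 in 8.93%, so matches were found in genes on either side of shControl and are common among promoters.

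**Figure D1:**
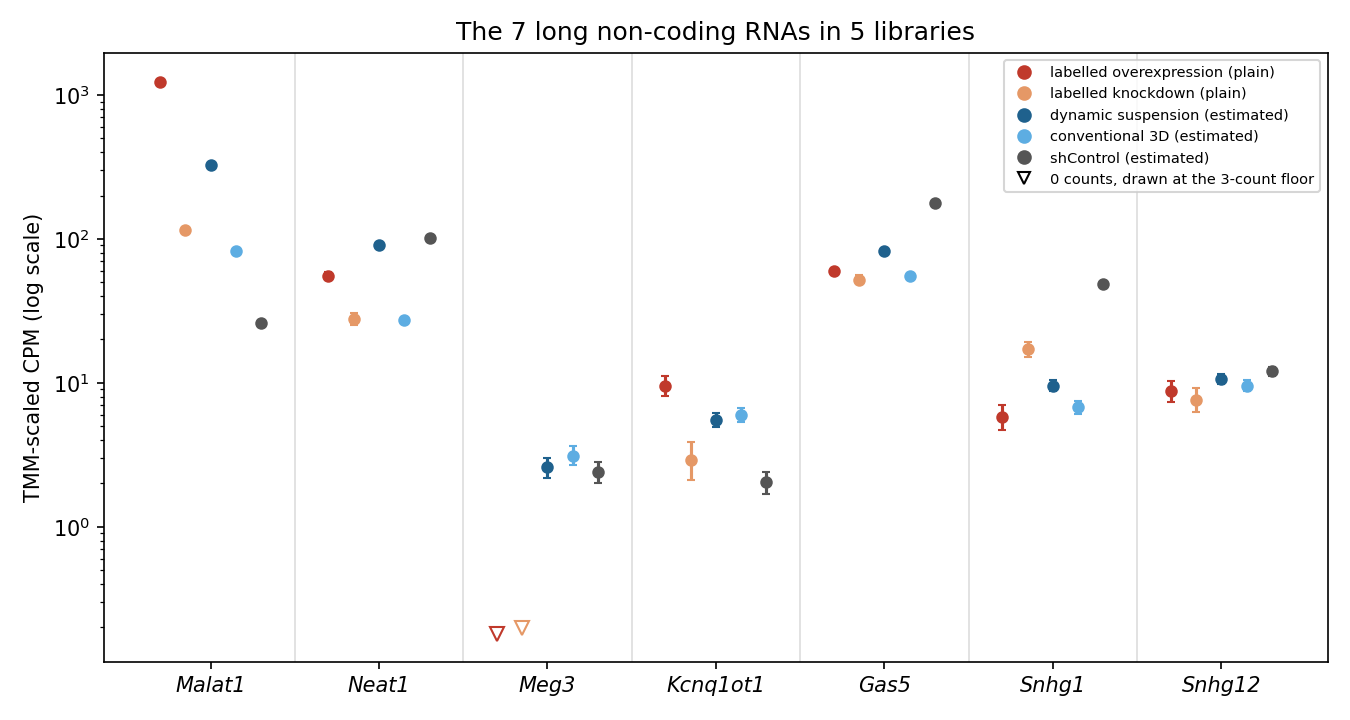
TMM-scaled CPM (log axis) of the 7 genes in each of the 5 libraries, with 95% Poisson counting intervals; open triangles stand for 0 counts, drawn at the floor of 3 counts. Malat1 runs over the widest range, with 1240 CPM in the labelled overexpression library and 25.85 in shControl, while Gas5, Snhg1 and Snhg12 are highest in shControl.

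Malat1 (ENSMUSG00000092341, chromosome 19, 5795690 to 5802672, minus strand, lincRNA) stood at 1240 CPM in the library labelled overexpression, 116 in the library labelled knockdown, 328 in dynamic suspension, 82.3 in conventional 3D culture and 25.85 in shControl. No pair of its 95% Poisson counting intervals overlapped, and shControl was lowest. Neat1 (ENSMUSG00000092274, chromosome 19, 5824708 to 5845478, minus strand, lincRNA) stood at 55.2, 27.7, 91.0, 27.4 and 101 CPM in the same libraries, taken as labelled overexpression, labelled knockdown, dynamic suspension, conventional 3D and shControl. Its intervals in the library labelled knockdown (25.1 to 30.5) and in conventional 3D culture (26.0 to 28.9) overlapped, and shControl was highest.

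Meg3 (ENSMUSG00000021268, chromosome 12, 109541001 to 109571726, plus strand, lincRNA) had 0 counts in both the libraries labelled overexpression and knockdown, and 2.58 CPM in dynamic suspension, 3.12 in conventional 3D culture and 2.39 in shControl. A count of 0 allows up to 3 counts, which is 0.179 CPM in the labelled overexpression and 0.197 CPM in the labelled knockdown library. The 3 estimated columns overlapped in their intervals (2.19 to 3.02, 2.66 to 3.63 and 2.02 to 2.805). Kcnq1ot1 (ENSMUSG00000101609, chromosome 7, 143203458 to 143296549, minus strand, annotated as antisense) stood at 9.53 CPM in the library labelled overexpression, 2.89 in the library labelled knockdown, 5.51 in dynamic suspension, 6.01 in conventional 3D culture and 2.03 in shControl. The library labelled overexpression was clearly highest, dynamic suspension (4.94 to 6.14) overlapped conventional 3D (5.37 to 6.71), and the library labelled knockdown (2.10 to 3.88) overlapped shControl (1.69 to 2.42).

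Gas5 (ENSMUSG00000053332, chromosome 1, 161034422 to 161038539, plus strand) stood at 59.4 CPM in the library labelled overexpression, 52.1 in the library labelled knockdown, 82.1 in dynamic suspension, 55.5 in conventional 3D culture and 176.5 in shControl. Snhg1 (ENSMUSG00000108414, chromosome 19, 8723475 to 8726443, plus strand) stood at 5.78, 17.1, 9.57, 6.75 and 48.5 CPM in the labelled overexpression, labelled knockdown, dynamic suspension, conventional 3D and shControl libraries. Snhg12 (ENSMUSG00000086290, chromosome 4, 132308623 to 132311024, plus strand) stood at 8.75, 7.61, 10.6, 9.53 and 12.0 CPM in that order. All 3 hosts were highest in shControl, Snhg12 by a small margin: its interval of 11.2 to 12.9 there overlapped that of dynamic suspension (9.79 to 11.45). For Snhg12 the intervals also overlapped among the labelled overexpression (7.39 to 10.3), labelled knockdown (6.29 to 9.13) and conventional 3D (8.72 to 10.4) libraries, and for Snhg1 between the labelled overexpression library (4.68 to 7.04) and conventional 3D culture (6.07 to 7.48). In Gas5 the library labelled knockdown (48.6 to 55.9) overlapped conventional 3D culture (53.6 to 57.6), which overlapped the library labelled overexpression (55.7 to 63.2). Intervals cover counting error only, and those of estimated counts are approximate.

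Between genes, levels were set side by side per kilobase of exon, taken over all annotated transcripts of a gene. For Neat1 this is 20771 bases, the length of its long isoform. Isoforms were not separated, so places in the order depend on the lengths used. In the library labelled overexpression the order ran from Malat1 at 178 CPM per kb through Gas5 at 15.8, Snhg12 at 3.64, Neat1 at 2.66 and Snhg1 at 1.95 to Kcnq1ot1 at 0.102. In shControl it ran from Gas5 at 46.9 CPM per kb through Snhg1 at 16.3, Snhg12 at 5.01, Neat1 at 4.88 and Malat1 at 3.70 to Meg3 at 0.132 and Kcnq1ot1 at 0.0218. Malat1 thus led in the library labelled overexpression and stood between Neat1 and Meg3 in shControl. By CPM it ranked 41st of all genes in the library labelled overexpression, 1894th in the library labelled knockdown, 426th in dynamic suspension, 2733rd in conventional 3D culture and 6763rd in shControl.

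A gene was called beyond 2-fold when the log2 ratio of scaled CPM was at least 1 in size, the mean of both libraries reached 1 CPM and the counting interval of the ratio left out 1. Between dynamic suspension and conventional 3D culture, both estimated columns, 2 of the 7 genes were higher and 0 lower, where 6.44% of all tested genes were higher and 7.64% lower. For dynamic suspension against shControl, also of one kind, 2 were higher and 2 lower, beside 13.8% and 14.8% of all genes. Conventional 3D culture against shControl gave 2 higher and 3 lower, beside 14.0% and 14.9%. The labelled overexpression against the labelled knockdown library, both plain, gave 2 higher and 1 lower of the 6 genes past the filter, with 17.7% of all genes higher and 14.9% lower. Across kinds of column, the library labelled overexpression had 2 higher and 3 lower than shControl, where 16.1% of all genes were higher and 20.1% lower; 1 of the 2 higher is Malat1, which was chosen by this ratio, so nothing is read from that count. The library labelled knockdown had 1 higher and 4 lower than shControl, beside 8.05% and 15.7%. The comparisons against shControl share that library, so a value out of the ordinary in shControl enters each of them.

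**Figure D2:**
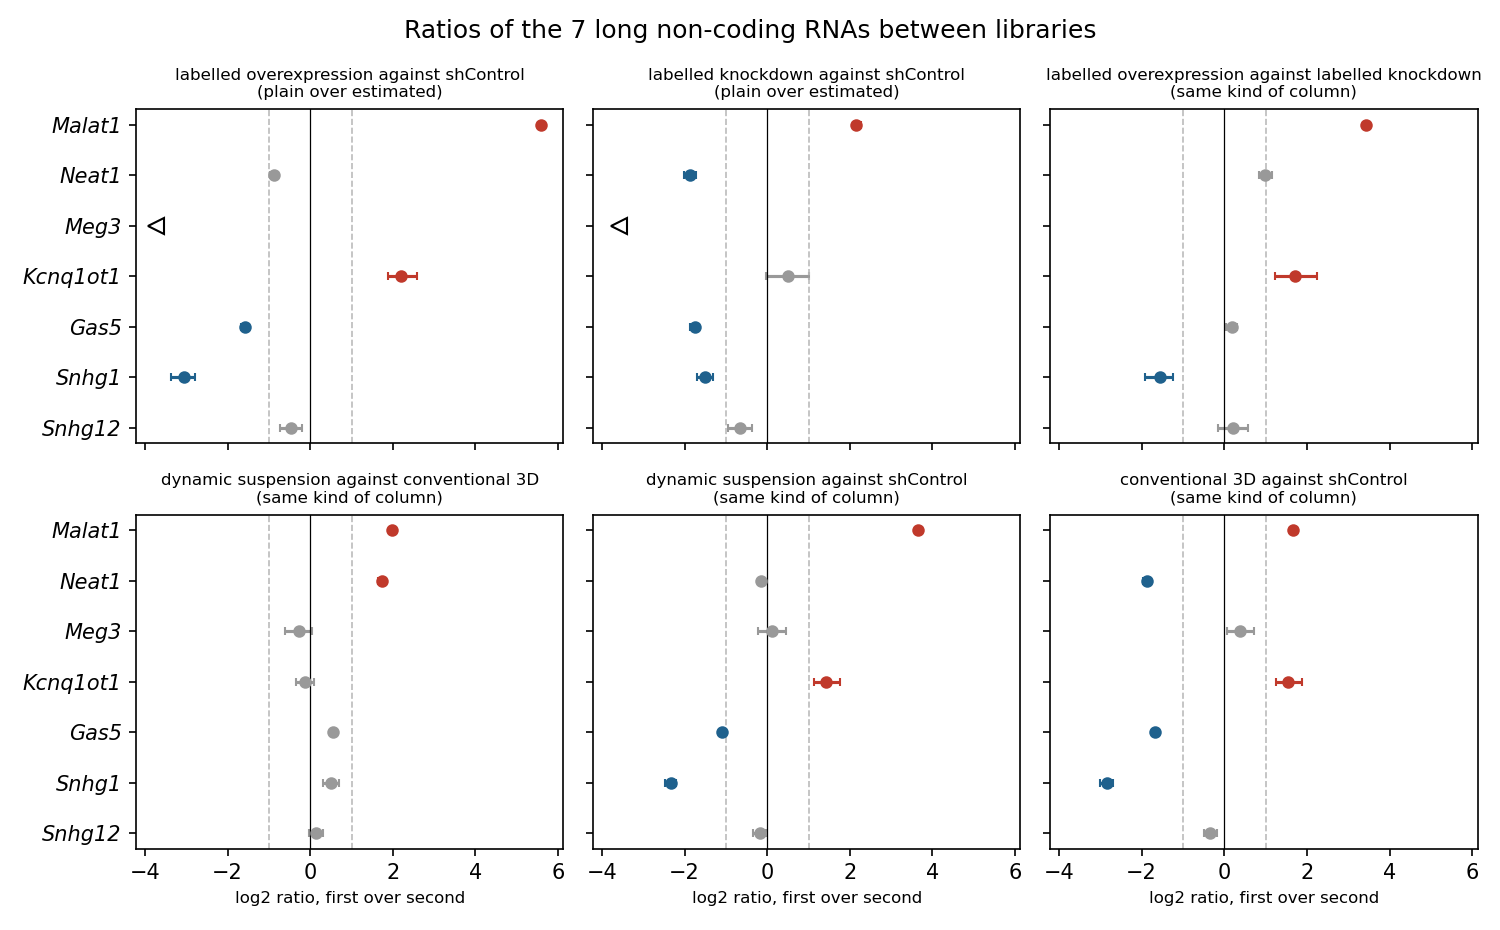
Log2 ratio of TMM-scaled CPM (first library over second) of the 7 genes in 6 comparisons, with 95% counting intervals; red is called higher, blue called lower, grey not called, and an open triangle is the Meg3 bound from the 3-count floor. Dashed lines mark 2-fold. Malat1 lies right of 0 in all 6 panels, from 1.67 to 5.58.

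Malat1 was called higher in each of the 6 comparisons. Within one kind of column, it was 3.99-fold higher in dynamic suspension than under conventional 3D culture (log2 ratio 1.99, 95% counting interval 1.95 to 2.04) and 10.7-fold higher in the library labelled overexpression than in the library labelled knockdown (3.42, 3.35 to 3.49). Against shControl it was 12.7-fold higher in dynamic suspension (3.66, 3.59 to 3.74) and 3.19-fold higher in conventional 3D culture (1.67, 1.59 to 1.75). The comparison of dynamic suspension with conventional 3D culture uses neither of the values by which Malat1 was chosen, and there it lay at percentile 98.4 among all tested genes. The other 5 comparisons each use its labelled overexpression or its shControl value, so their direction is in part set by the choice. Across kinds, the ratio that led to its choice was 48.0-fold for the library labelled overexpression over shControl (5.58, 5.51 to 5.66), and the library labelled knockdown stood 4.48-fold over shControl (2.16, 2.07 to 2.26).

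RNAs that lack a poly(A) tail, or carry only a short one, are given beside Malat1 because selection on poly(A) bears on both. Of 32 such RNAs listed, 29 were in the table and 6 averaged at least 1 CPM. The mitochondrial ribosomal RNA mt-Rnr1 stood at 1235 CPM in the library labelled overexpression, 172 in the library labelled knockdown, 1013 in dynamic suspension, 534 in conventional 3D culture and 41.9 in shControl, the order of Malat1 but for the places of the library labelled knockdown and conventional 3D culture. mt-Rnr2, the other mitochondrial ribosomal RNA, stood at 995, 768, 600.1, 4011 and 83.0 CPM in the same order of libraries, and was highest in conventional 3D culture, where Malat1 was second lowest. Hist1h1c, a linker histone gene known to make tailed as well as untailed mRNA, stood at 75.9, 19.8, 87.4, 38.9 and 9.68 CPM. These 3 were lowest in shControl, as was Malat1. The remaining 3 were not: the histone gene Hist1h2bc stood at 17.2, 6.43, 73.5, 22.1 and 20.4 CPM, Hist2h2aa1, another histone gene, at 0, 0, 17.2, 3.98 and 1.62, and Rn7sk, the 7SK RNA that restrains transcription elongation, at 0.179, 0.394, 3.10, 1.01 and 1.41. In the library labelled overexpression, where Malat1 was highest, all of these last 3 were below shControl, which sets a plain against an estimated column. Rn7sk had 3 counts there, the floor used for a 0. Hist2h2aa1, with 586 exonic bases shared with other genes, was at 0 in both plain columns, as was Meg3. By count, 7 of 8 tested members of the list were higher and 0 lower in dynamic suspension than in shControl, and 5 were higher and 1 lower of 7 in dynamic suspension against conventional 3D culture. A histone gene among those higher in both passed the filter only through its dynamic suspension value. It stood at 1.99 CPM there, 0.169 in conventional 3D culture and 0.731 in shControl, so these counts are in part set by the filter. Over shControl 4 of 6 were higher in conventional 3D culture, 3 of 4 in the library labelled overexpression, and 3 of 5 in the library labelled knockdown with 1 lower. Between the labelled overexpression and labelled knockdown libraries 3 of 5 were higher and 1 lower. Beside them, 13.8% of all tested genes were higher than shControl in dynamic suspension and 14.0% in conventional 3D culture. The share was 16.1% in the library labelled overexpression and 8.05% in the library labelled knockdown. Between the culture methods 6.44% were higher, and 17.7% in the labelled overexpression over the labelled knockdown library. The list counts depend on the filter: without it, the list had 3 higher and 8 lower in the library labelled overexpression than in shControl, 5 higher and 9 lower in conventional 3D culture than in shControl, and 3 higher and 6 lower in the labelled overexpression against the labelled knockdown library. The summed level of the list was 2325 CPM in the library labelled overexpression, 974 in the library labelled knockdown, 1801 in dynamic suspension, 4612 in conventional 3D culture and 164 in shControl, and its part in the Malat1 values was not tested. The labels state an RNA integrity number over 7.0 for every sample.

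Neat1, which is transcribed 22036 bp upstream of Malat1 on the same strand, parted from its neighbour only in ratios over shControl. Those ratios use a value by which Malat1 was chosen. In comparisons without shControl, Neat1 leaned the same way as Malat1. It was 3.32-fold higher in dynamic suspension than under conventional 3D culture (log2 ratio 1.73, interval 1.65 to 1.81) and was there called together with Malat1. It was 3.70-fold lower in conventional 3D culture than in shControl (-1.88, -1.97 to -1.80) and 0.898 times the shControl level in dynamic suspension (-0.16, -0.21 to -0.10). The library labelled overexpression stood at 1.99 times the library labelled knockdown (0.99, 0.83 to 1.16), just short of the 2-fold call, which was reached with 2 of 7 other settings. Against shControl the ratio was -0.88 (-0.98 to -0.78, not called) in the library labelled overexpression and -1.87 (-2.02 to -1.73) in the library labelled knockdown. The next gene, Frmd8, 4224 bp upstream of Neat1, was called in none of the 6 comparisons and kept within log2 ratios of -0.53 to 0.70.

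Genes for proteins of paraspeckles and nuclear speckles were more often called lower than higher against shControl. Among 20 paraspeckle protein genes, 0 were called between dynamic suspension and conventional 3D culture (median log2 ratio 0.04), while 9 were lower and 0 higher in dynamic suspension than in shControl (median -0.77) and 8 lower and 0 higher in conventional 3D culture than in shControl (-0.88). Against shControl the library labelled overexpression had 11 lower and 0 higher (-1.12) and the library labelled knockdown 5 lower and 0 higher (-0.61), and the labelled overexpression against the labelled knockdown library 6 lower and 1 higher (-0.57). Of all tested genes, 14.8% in dynamic suspension, 14.9% in conventional 3D culture and 20.1% in the library labelled overexpression were lower than shControl. The share was 15.7% in the library labelled knockdown, whose count lies closest to its share. For the labelled overexpression over the labelled knockdown library it was 14.9%. Sfpq, a core paraspeckle protein that binds Neat1, stood at 125 CPM in the library labelled overexpression, 424 in the library labelled knockdown, 118.5 in dynamic suspension, 170 in conventional 3D culture and 364 in shControl. Sfpq was thus high in the library labelled knockdown, where Neat1 was low, and was not called between the culture methods, where Neat1 was. Sfpq does not stand for the whole list. Hnrnph1, another gene of it, stood at 184, 113, 166.5, 98.4 and 415 CPM in the same order of libraries. Like Neat1, Hnrnph1 was lowest in conventional 3D culture, next lowest in the library labelled knockdown and highest in shControl.

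Of 30 nuclear speckle and splicing genes, 0 were called between dynamic suspension and conventional 3D culture (median 0.06). Against shControl, 17 were lower in dynamic suspension (-1.15) and 20 in conventional 3D culture (-1.20), with 0 higher in either. Also against shControl, 13 were lower and 1 higher in the library labelled overexpression (-0.87), and the library labelled knockdown 9 lower and 0 higher (-0.64). Against the labelled knockdown, the labelled overexpression library had 4 higher and 9 lower (-0.18). Srsf3, a splicing factor of the SR family, stood at 74.0 CPM in the library labelled overexpression, 305 in the library labelled knockdown, 124 in dynamic suspension, 140.0 in conventional 3D culture and 424 in shControl. The kinases Clk1 and Clk4, which phosphorylate SR proteins, went the other way between the plain columns: Clk1 stood at 103 CPM in the labelled overexpression and 21.3 in the labelled knockdown library (log2 ratio 2.28), and Clk4 at 73.4 and 11.2 CPM in those libraries (2.70). The median over all tested genes lay between -0.03 and 0.01 in the 6 comparisons. Lower than shControl were 14.8% of them in dynamic suspension, 14.9% in conventional 3D culture and 20.1% in the library labelled overexpression. In the library labelled knockdown it was 15.7%, to which the 9 of 30 there lie closer than the other counts do to their shares. For the labelled overexpression over the labelled knockdown library, 17.7% were higher and 14.9% lower.

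Meg3 was not called among the 3 estimated columns: its log2 ratio was -0.27 (-0.60 to 0.05) in dynamic suspension against conventional 3D culture, 0.11 (-0.22 to 0.45) in dynamic suspension against shControl and 0.38 (0.06 to 0.72) in conventional 3D culture against shControl. With 0 counts it was at least 13.4-fold lower in the library labelled overexpression and at least 12.1-fold lower in the library labelled knockdown than for shControl, taking 3 counts per library as the floor. These bounds set plain against estimated columns. A count made after Meg3 was seen found 71 of 11266 genes (0.63%) at 0 in both plain columns among those with at least 100 in all 3 estimated ones, and 6 of 220 long non-coding genes (2.73%).

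Further long non-coding RNAs, picked after their values were seen, were at 0 in the same libraries. Rian, transcribed downstream of Meg3 in the same cluster, stood at 0 CPM in both the labelled overexpression and labelled knockdown libraries, and at 1.09 in dynamic suspension, 1.79 in conventional 3D culture and 1.22 in shControl. H19, an imprinted RNA of the Igf2 locus, was also at 0 in both plain columns and stood at 4.50, 10.3 and 4.14 CPM in the dynamic suspension, conventional 3D and shControl libraries. Xist, the RNA of the inactive X chromosome, and Miat likewise had 0 in both plain columns, with 1.80 to 3.44 CPM of Xist and 1.60 to 2.81 CPM of Miat in the estimated ones. The fibroblast markers were mixed. Dcn and Lum, a pair of matrix proteoglycans, had 0 in both plain columns, and stood in dynamic suspension at 3.16 and 0.563 CPM, in conventional 3D culture at 8.66 and 2.33, and in shControl at 2.50 and 0.455. Pdgfra, a growth factor receptor, was instead highest in the library labelled knockdown, at 3.02 CPM, with 1.25 in the library labelled overexpression, 1.19 in dynamic suspension, 1.86 in conventional 3D culture and 1.27 in shControl. The collagen gene Col1a1 stood at 1.79, 5.78, 4.72, 25.6 and 8.15 CPM in the labelled overexpression, labelled knockdown, dynamic suspension, conventional 3D and shControl libraries. Over shControl, 4 of 5 tested were lower and 0 higher in the library labelled overexpression, and 3 of 5 lower and 1 higher in the library labelled knockdown. Among all tested genes 20.1% and 15.7% were lower in these libraries. Within one kind of column, 5 of 6 were higher and 0 lower in conventional 3D culture than in shControl, beside 14.0% of all genes higher. In dynamic suspension over conventional 3D culture 5 of 6 were lower and 0 higher, beside 7.64% lower. Of 5 tested, 0 were called in dynamic suspension against shControl. Meg3 was called in none of these. The 6 fibroblast markers summed to 3.215 CPM in the library labelled overexpression, 11.0 in the library labelled knockdown, 26.0 in dynamic suspension, 119 in conventional 3D culture and 32.1 in shControl, and 5 of 6 averaged at least 1 CPM. Their part in the Meg3 values was not tested, and fewer cells of a type and less RNA per cell cannot be told apart in such bulk samples.

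**Figure D3:**
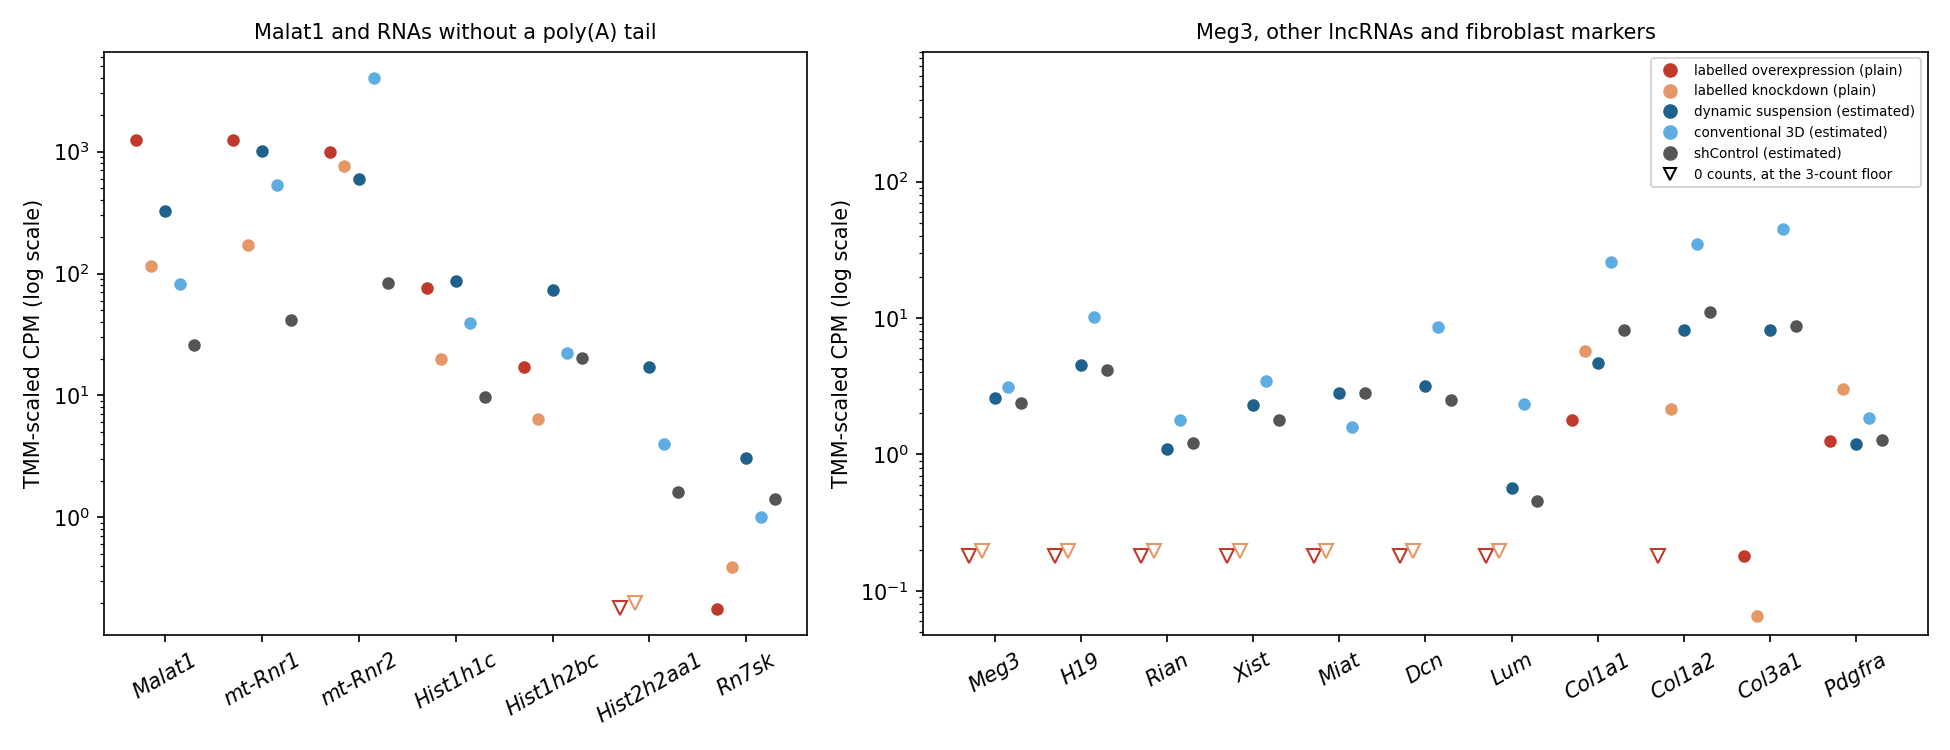
TMM-scaled CPM (log axis) of Malat1 with RNAs that lack or hardly carry a poly(A) tail (left, the 6 averaging at least 1 CPM) and of Meg3 with other long non-coding RNAs and the 6 fibroblast markers (right) in the 5 libraries. Open triangles are 0 counts at the 3-count floor: Meg3, H19, Rian, Xist, Miat, Dcn and Lum have them in both plain columns, while Pdgfra is highest in the library labelled knockdown; on the left, Malat1, mt-Rnr1, mt-Rnr2 and Hist1h1c are lowest in shControl, and Hist1h2bc, Hist2h2aa1 and Rn7sk are not.

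Kcnq1ot1 was higher in the library labelled overexpression than in the library labelled knockdown (log2 ratio 1.71, 1.23 to 2.24; 3.30-fold) and higher than shControl in dynamic suspension (1.42, 1.14 to 1.75) and in conventional 3D culture (1.54, 1.26 to 1.88). Between dynamic suspension and conventional 3D culture the ratio was -0.12, with an interval of -0.35 to 0.10, and it was 0.06 when libraries were scaled by total counts. Across kinds of column it was 2.20 (1.88 to 2.58) for the library labelled overexpression and 0.50 (-0.02 to 1.02, not called) for the library labelled knockdown, both over shControl. The gene lies within Kcnq1 on the other strand, and 1119 of its 93092 exonic bases overlap exons of other genes. The library kit keeps strand, but the counting setting is not given in the sources used here.

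In the imprinted cluster around Kcnq1ot1, the nearest expressed gene on its upstream side was Slc22a18, a transporter gene 177187 bp away. It stood at 57.0 CPM in the library labelled overexpression, 4.66 in the library labelled knockdown, 25.9 in dynamic suspension, 51.6 in conventional 3D culture and 10.6 in shControl. It was thus called higher with Kcnq1ot1 in the labelled overexpression against the labelled knockdown library (3.60), and against shControl in dynamic suspension (1.28) and conventional 3D culture (2.28), and lower in the library labelled knockdown than for shControl (-1.18). Phlda2, a growth-restraining gene of the cluster, stood at 3.45, 0.591, 2.10, 1.71 and 0.828 CPM in the labelled overexpression, labelled knockdown, dynamic suspension, conventional 3D and shControl libraries. Cdkn1c, the cell cycle inhibitor of the cluster, stood at most at 1.20 CPM, in shControl. Of the 19 genes listed around Meg3 and Kcnq1ot1, 3 of 8 tested were higher and 0 lower in the library labelled overexpression than in shControl, and 0 of 6 higher and 1 lower in the library labelled knockdown. Against shControl 3 of 10 were higher in dynamic suspension and 3 of 11 in conventional 3D culture, with 0 lower. The labelled overexpression over the labelled knockdown library gave 3 higher and 2 lower of 8, and dynamic suspension over conventional 3D culture 0 higher and 1 lower of 10. Of all tested genes, 16.1% were higher in the library labelled overexpression, 13.8% in dynamic suspension and 14.0% in conventional 3D culture than in shControl, and 7.64% were lower between the culture methods. In the library labelled knockdown 15.7% were lower than in shControl. For the labelled overexpression over the labelled knockdown library 17.7% were higher and 14.9% lower. With so few genes tested these counts cannot be set apart from those shares. They also depend on the filter: without it, 1 gene was higher and 4 lower in the library labelled knockdown against shControl, and 3 higher and 3 lower between the culture methods.

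Gas5 and Snhg1 were lower than shControl in every other library. Among estimated columns, Gas5 was 2.15-fold lower in dynamic suspension than in shControl (log2 ratio -1.10, -1.15 to -1.06) and 3.18-fold lower in conventional 3D culture (-1.67, -1.73 to -1.61). Snhg1 was 5.07-fold lower in dynamic suspension than in shControl (-2.34, -2.47 to -2.21) and 7.19-fold lower in conventional 3D culture (-2.84, -3.01 to -2.69). Across kinds, Gas5 stood at -1.57 (-1.67 to -1.48) and -1.76 (-1.87 to -1.66) in the labelled overexpression and labelled knockdown libraries over shControl, and Snhg1 at -3.06 (-3.38 to -2.78) and -1.50 (-1.69 to -1.32).

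Away from shControl the hosts parted. Snhg1 was 2.97-fold lower in the library labelled overexpression than in the library labelled knockdown (-1.56, -1.92 to -1.23), whereas Gas5 was 1.14 times as high (0.19, 0.05 to 0.32) and Snhg12 1.15 times as high (0.20, -0.16 to 0.57). Between dynamic suspension and conventional 3D culture none of the 3 was called, with log2 ratios of 0.56 (0.50 to 0.63) for Gas5, 0.50 (0.31 to 0.70) for Snhg1 and 0.15 (-0.02 to 0.32) for Snhg12. Snhg12 was called in none of the 6 comparisons. Its log2 ratio over shControl was -0.46 (-0.72 to -0.20) in the library labelled overexpression, -0.66 (-0.96 to -0.38) in the library labelled knockdown, -0.18 (-0.34 to -0.03) in dynamic suspension and -0.34 (-0.50 to -0.17) in conventional 3D culture.

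The snoRNAs inside the hosts were not measured at a usable level. The annotation places 10 snoRNA genes within Gas5, 8 within Snhg1 and 5 within Snhg12, and all 23 are in the table. Each stood at 0 in the plain columns and at 1 or less in the estimated columns. A value of 1 in all 3 estimated and 0 in both plain columns was found for 77 of 1507 snoRNA genes (5.11%). These genes cover 17.8%, 20.9% and 19.6% of the exonic bases of Gas5, Snhg1 and Snhg12, so reads there could have been assigned in more than one way.

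Other snoRNA-host genes, coding and non-coding, were also more often lower than higher against shControl. Of 40 listed, 37 were in the table. In dynamic suspension 15 of 32 tested were lower and 0 higher than in shControl (median -0.94), and in conventional 3D culture 20 of 32 lower and 0 higher (-1.15). Over shControl, the library labelled overexpression had 14 of 32 lower and 1 higher (-0.85), the library labelled knockdown 6 of 33 lower and 1 higher (-0.11), and the labelled overexpression over the labelled knockdown library 12 of 32 lower and 1 higher (-0.60). Dynamic suspension over conventional 3D culture gave 3 higher and 1 lower of 31 (0.06). Beside these counts, 14.8% of all tested genes were lower in dynamic suspension and 14.9% in conventional 3D culture than in shControl. The share was 20.1% in the library labelled overexpression and 15.7% in the library labelled knockdown, and the 6 of 33 there are near it. In the labelled overexpression over the labelled knockdown library 14.9% were lower, and 6.44% were higher between the culture methods. Snhg5, a non-coding host, stood at 2.68 CPM in the library labelled overexpression, 9.52 in the library labelled knockdown, 1.11 in dynamic suspension, 2.39 in conventional 3D culture and 15.5 in shControl. Snhg6, another one, went apart at 40.4, 25.7, 9.63, 4.47 and 15.4 CPM in that order. It was higher than shControl in the library labelled overexpression (log2 ratio 1.39) and lower in conventional 3D culture (-1.77). Snhg3 had 0 counts in both plain columns and 5.57 CPM in shControl.

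Genes for proteins that coat box C/D snoRNAs, the kind carried by Gas5 and Snhg1, were listed with those that help assemble these particles. Most of them, with the 3 core genes given next, were highest in shControl. The others were highest in the library labelled knockdown or in dynamic suspension. Nop56, a core protein of these particles and itself a snoRNA host, stood at 45.1 CPM in the library labelled overexpression, 274 in the library labelled knockdown, 52.9 in dynamic suspension, 72.7 in conventional 3D culture and 276 in shControl. Fbl, the methyltransferase fibrillarin, stood at 30.3, 118, 39.6, 50.5 and 150.3 CPM in that order, and Nop58, the other core scaffold, at 42.7, 123, 44.5, 30.2 and 216.5 CPM. These 3 genes had their second highest value in the library labelled knockdown, as had Snhg1 but not Gas5. Of the 11 listed genes, 7 were lower and 0 higher in the library labelled overexpression than in shControl (median -1.34), and 7 lower and 0 higher than in the library labelled knockdown (-1.20). Over shControl 5 were lower in dynamic suspension (-0.99), 6 in conventional 3D culture (-1.12) and 1 in the library labelled knockdown (-0.14), with 0 higher. Between dynamic suspension and conventional 3D culture 0 were called (-0.15). Shares of all tested genes lower than shControl were 20.1% in the library labelled overexpression, 14.8% in dynamic suspension and 14.9% in conventional 3D culture. In the library labelled knockdown the share was 15.7%, and the 1 of 11 there is not above it. Against the labelled knockdown, 14.9% of all tested genes were lower in the labelled overexpression library. Dkc1, the pseudouridine synthase of box H/ACA particles, stood at 16.2, 56.3, 11.0, 10.8 and 88.9 CPM in the labelled overexpression, labelled knockdown, dynamic suspension, conventional 3D and shControl libraries.

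**Figure D4:**
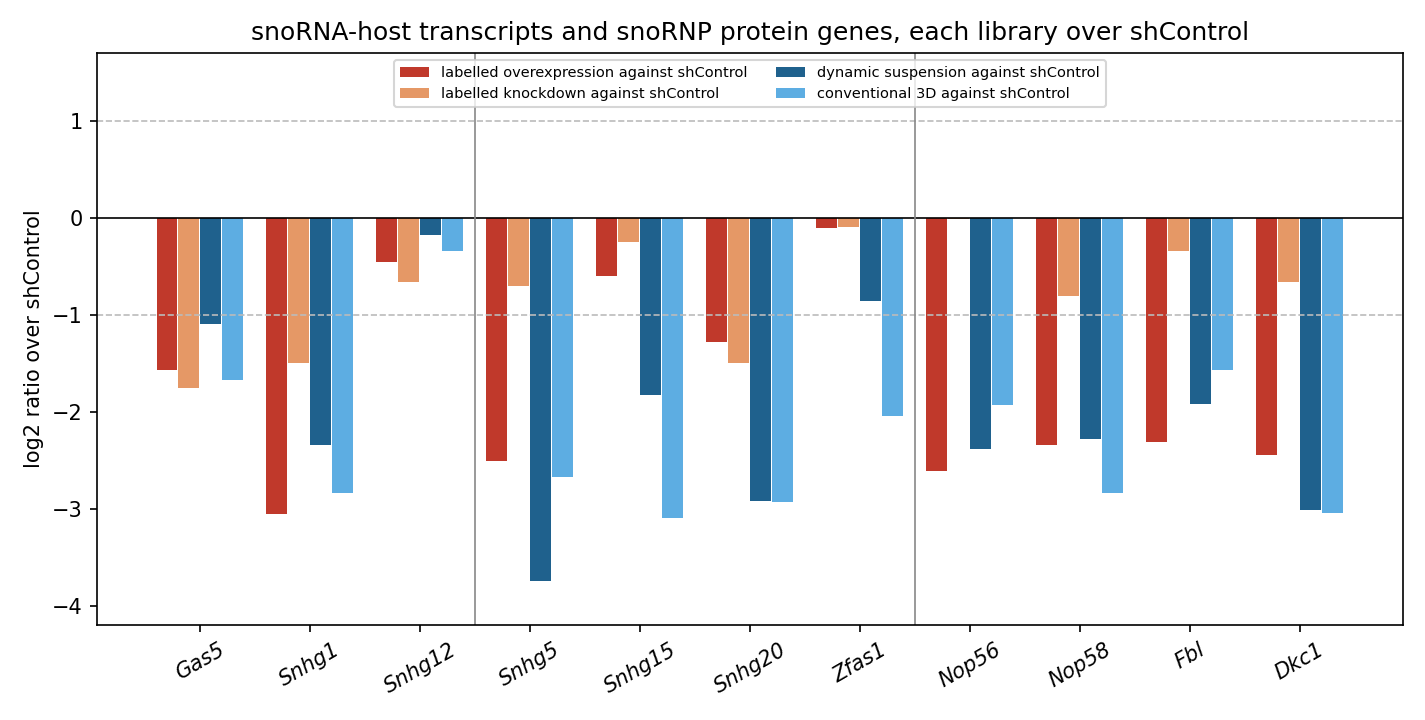
Log2 ratio over shControl of the 3 snoRNA hosts (left), 4 further non-coding hosts (middle) and 4 snoRNP protein genes (right) in the other libraries; bars start at 0, dashed lines mark 2-fold, and the 4 ratios of a gene share 1 shControl value. Gas5 and Snhg1 lie below -1 in all 4 libraries, Snhg12 in none, and Nop56 in the library labelled knockdown has no visible bar because its level, 274 CPM, was close to the 276 CPM of shControl.

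Factors of nonsense-mediated decay, the pathway that degrades spliced Gas5, were called in both directions. Of 19 genes, 2 were higher and 0 lower in dynamic suspension than under conventional 3D culture (median 0.01), and 1 higher and 4 lower than in shControl (-0.17). Conventional 3D culture had 2 higher and 6 lower than shControl (-0.32), the library labelled overexpression 3 higher and 6 lower (-0.52), and the library labelled knockdown 0 higher and 2 lower (0.17). The labelled overexpression over the labelled knockdown library gave 1 higher and 5 lower (-0.35). Upf2, a core factor, stood at 19.4 CPM in the library labelled overexpression, 12.5 in the library labelled knockdown, 28.9 in dynamic suspension, 13.6 in conventional 3D culture and 49.8 in shControl and was highest in shControl, as was Gas5. Other factors ran the other way: Smg1, the kinase that phosphorylates Upf1, stood at 142, 76.3, 82.1, 89.0 and 58.1 CPM in that order, and Nbas at 112, 103, 87.0, 114 and 52.9 CPM, both lowest in shControl. Against shControl, 20.1% of all tested genes were lower in the library labelled overexpression, 15.7% in the library labelled knockdown, 14.8% in dynamic suspension and 14.9% in conventional 3D culture, so the counts of 4 and 2 of 19 in dynamic suspension and in the library labelled knockdown are near those shares. Higher than shControl were 16.1%, 8.05%, 13.8% and 14.0% in that order, and no count of higher factors exceeds its share. Between the culture methods 6.44% of all genes were higher. For the labelled overexpression over the labelled knockdown library 17.7% were higher and 14.9% lower.

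Genes next to the hosts did not share their order. Zbtb37, a zinc finger gene that overlaps Gas5 on the other strand, stood at 52.8 CPM in the library labelled overexpression, 9.38 in the library labelled knockdown, 51.2 in dynamic suspension, 43.5 in conventional 3D culture and 13.65 in shControl. It was called higher than shControl in dynamic suspension (1.90), conventional 3D culture (1.67) and the library labelled overexpression (1.95), the libraries in which Gas5 was lower. Slc3a2, the heavy chain of amino acid transporters, lies 106 bp from Snhg1 on the other strand and stood at 211.5, 470, 249, 315.5 and 322 CPM in the labelled overexpression, labelled knockdown, dynamic suspension, conventional 3D and shControl libraries. It was called in 1 comparison, lower in the labelled overexpression than in the labelled knockdown library (-1.15), where Snhg1 was lower too. Wdr74, downstream of Snhg1, had 0 and 0.263 CPM in the labelled overexpression and labelled knockdown libraries, and 18.4, 22.9 and 33.3 CPM in dynamic suspension, conventional 3D culture and shControl. Like Meg3, it was thus nearly absent from both plain columns.

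The other 43 nuclear or regulatory long non-coding RNAs listed, of which 32 were in the table, gave a wider view. In the labelled overexpression over the labelled knockdown library, 10 of 16 tested were higher and 0 lower (median log2 ratio 1.22). Mir22hg, a microRNA host, stood at 32.5 CPM in the library labelled overexpression, 1.71 in the library labelled knockdown, 14.1 in dynamic suspension, 14.2 in conventional 3D culture and 5.50 in shControl. Firre, a nuclear repeat RNA of the X chromosome, stood at 103, 23.4, 19.9, 39.6 and 47.6 CPM in that order. The library labelled overexpression had 6 higher and 3 lower of 18 than shControl (0.44), and the library labelled knockdown 0 higher and 8 lower of 18 (-0.90). Dynamic suspension had 2 higher and 1 lower of 19 against conventional 3D culture (0.12) and 5 higher and 2 lower of 20 against shControl (0.22). Conventional 3D culture had 5 higher and 3 lower of 20 against shControl (0.05). Over all tested genes, 17.7% were higher in the labelled overexpression than in the labelled knockdown library. Against shControl, 16.1% were higher and 20.1% lower in the former, and 8.05% and 15.7% in the latter. Dynamic suspension had 13.8% and 14.8%, conventional 3D culture 14.0% and 14.9%, and the culture methods compared 6.44% and 7.64%. With few genes tested, the culture counts cannot be set apart from these shares. Dleu2 and Ftx, hosts of microRNAs, were the ones called higher between the culture methods: Dleu2 stood at 8.01 CPM in dynamic suspension and 1.58 in conventional 3D culture (2.31), and Ftx at 3.69 and 1.26 CPM (1.52).

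Long non-coding genes as a class were called higher more often than protein-coding genes in each of the 6 comparisons. Of 480 tested in the labelled overexpression over the labelled knockdown library, 41.5% were higher and 11.7% lower, beside 16.8% and 14.5% of protein-coding genes. Between dynamic suspension and conventional 3D culture 24.2% of 488 were higher and 7.79% lower, beside 5.89% and 7.93%. Against shControl, 26.2% were higher and 16.4% lower in dynamic suspension (protein-coding 13.6% and 14.0%), and 20.0% higher and 26.2% lower in conventional 3D culture (14.4% and 13.5%). The library labelled overexpression had 30.9% higher and 22.5% lower than shControl (15.8% and 16.4%), and the library labelled knockdown 9.03% higher and 30.8% lower (8.06% and 11.8%). The median log2 ratio of the class was 0.72 in the labelled overexpression over the labelled knockdown library and 0.33 between the culture methods. Against shControl it was 0.21 in the library labelled overexpression, -0.37 in the library labelled knockdown, 0.24 in dynamic suspension and -0.09 in conventional 3D culture. Malat1 and Kcnq1ot1 in the first of these, and Malat1 and Neat1 in the second, were thus called higher within a class that leaned the same way. No test set the classes against each other.

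**Figure D5:**
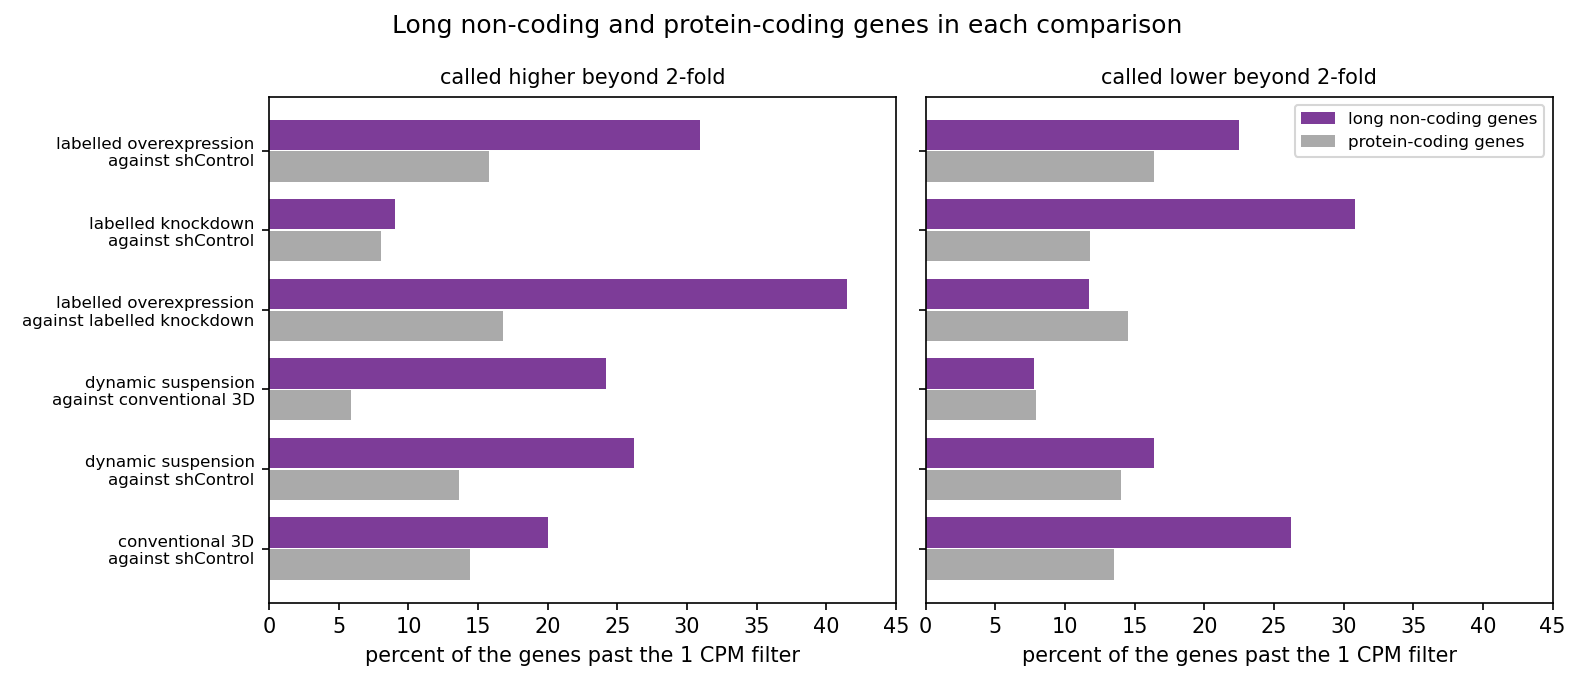
Percent of long non-coding and of protein-coding genes past the 1 CPM filter that were called higher (left) or lower (right) beyond 2-fold in each of the 6 comparisons; bars start at 0. The widest gap is for genes higher in the labelled overexpression than in the labelled knockdown library, 41.5% of long non-coding against 16.8% of protein-coding genes.

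Likeness of profiles was measured as the root mean square difference of log2 CPM over the 5 libraries, after each gene's mean was removed, a description over few points that share libraries and scaling. Among the 7 genes the closest were Gas5 with Neat1 and Gas5 with Snhg12 (0.47 each), then Neat1 with Snhg12 (0.64) and Gas5 with Snhg1 (0.71). Malat1 was closest to Kcnq1ot1 (1.28), and Meg3 was at least 2.57 from each other gene. Among 9513 genes averaging 10 CPM or more, the nearest to Malat1 were Gm14964 (0.88), the circadian factor Dbp (0.89) and mt-Rnr1 (0.95). Dbp stood at 78.8 CPM in the library labelled overexpression, 7.22 in the library labelled knockdown, 53.7 in dynamic suspension, 25.1 in conventional 3D culture and 4.45 in shControl. The measure grows with the range of a gene over the libraries, which was 48.0-fold for Malat1 and 1.58-fold for Snhg12. Distances of Malat1 can therefore not be compared as closeness with those of genes of narrow range. Its range also includes the values by which it was chosen.

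Partners at smaller distances were found for the other genes, without correction for their range. Neat1 lay closest to Zfp386 (0.23), the collagen gene Col16a1 (0.25) and Upf2 (0.26). Kcnq1ot1 lay closest to Usf3 (0.08), Ypel2 (0.12) and Dennd3 (0.13), and Gas5 to the cohesin subunit Smc3 (0.16), the heterochromatin protein gene Cbx3 (0.16) and the splicing factor Cwc22 (0.17). Snhg1 lay closest to Gpatch4 (0.18), the splicing regulator Hnrnpm (0.19) and Timm8a1 (0.24), and Snhg12 to Ublcp1 (0.02), Tmx1 (0.04) and the exosome helicase Mtrex (0.05). For Meg3 they were Cmtr1 (0.15), Aarsd1 (0.22) and Myl12b (0.27), protein-coding genes that were low in both plain columns. Cmtr1, an mRNA cap methyltransferase, stood at 4.70 and 4.40 CPM in the labelled overexpression and labelled knockdown libraries, and at 235, 252 and 181 CPM in dynamic suspension, conventional 3D culture and shControl.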

How the data were processed

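RNA of 5 libraries, 1 per group with 3 pooled repeats, was selected on poly(A), made into strand-specific libraries with inserts near 300 bp and read as pairs of 150 bp, per the labels' protocols. HISAT2, StringTie and cutadapt are named in the submitters' processing notes, as are the genome builds mm10 and GRCm38.p6. What each did, and the counting program, is not given in the sources used here. The values deposited for the libraries labelled overexpression and knockdown are counts, and those deposited for the other 3 are estimated counts, judged by their pattern (28.2% to 30.6% of values from 1 to 16 were multiples of 4, against 14.7% and 16.2%). Totals of the different kinds are therefore not depths on 1 scale. All 54100 gene identifiers matched GENCODE M21, and 0 sample columns were left over.

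Libraries were scaled by TMM factors over all 5 (0.869 to 1.09; edgeR 4.0.16, R 4.3.3), and log2 ratios used a prior count of 2. Intervals of ratios are exact conditional binomial (Clopper-Pearson) and those of levels exact Poisson, at 95%, computed in Python 3.11.15 with scipy 1.17.1; they and the floor of 3 counts for a 0 cover counting error only. With 1 library per group no test was run and no p-value is given. The procedure was tested on simulated data. The genes and lists were chosen with earlier results of these data known. Genes named besides the 7 are Hif1a, up to 4 members of each of 8 lists with the largest called ratio in a comparison, the nearest expressed neighbours and the 3 genes of nearest profile; exceptions chosen after values were seen are Retreg3, Smg1, Nbas, Rn7sk, Hist2h2aa1, Rian, Xist, Miat, Cdkn1c and the fibroblast markers beside Meg3. Marker lists covered 7 cell types. Alternatives were other scalings, no filter on low values, a prior of 0.5 and estimated counts divided by 4 for the interval. A few genes that these rules name are not reported here.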

Additional observations from a re-analysis of the deposited data

How the results depend on the processing

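All 42 counts of called genes among the 7, recomputed under 7 alternatives, stayed within 1.5 times the reported count, and 0 log2 ratios of called genes among them changed sign. The 1 sign that changed was of a ratio not called, Kcnq1ot1 in dynamic suspension against conventional 3D culture, at -0.12 as reported and 0.06 under total-count scaling. The 1 call that changed was Neat1 in the labelled overexpression against the labelled knockdown library, called higher when libraries were scaled by total counts or by TMM from coding genes with no exon overlap, which made 4 called genes in place of 3. Dropping the filter and dividing estimated counts by 4 leave the log2 ratio itself as it is, so the 42 ratios under each could not move. Dropping the filter could change no call among the 7 genes either. The only gene below it was Meg3 in the labelled overexpression against the labelled knockdown library, with 0 counts in both. Of 294 recomputed log2 ratios, these included, 14 moved beyond their counting interval, 12 of them under total-count scaling. That scaling shifted the median of all genes by 0.189 in dynamic suspension against conventional 3D culture and by -0.253 in conventional 3D culture against shControl, and the share of higher among called genes from 45.7% to 61.4% and from 48.6% to 31.8%. TMM from coding genes shifted the median by -0.103 in the labelled knockdown library against shControl. List counts, tried under the same alternatives as an addition made after seeing the data, moved by over 1.5 times in 16 of 336 cases, 12 of them without the filter on low values, which touched mainly the RNAs without a poly(A) tail (3 higher and 8 lower, in place of 3 and 0, in the labelled overexpression library against shControl) and the imprinted neighbours. No paired analysis was possible because each group had 1 library. Culture-to-culture spread was not measured, and low values of estimated counts limit Meg3 and Kcnq1ot1 most.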
